A study of Mus musculus with 10 samples.

Results

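A set of 9 genes, named here as niche genes of marrow stroma, was followed in *Lepr*-lineage cells. Whether each has a part in the blood stem cell niche was not tested. The 9 genes are *Lepr*, *Kitl*, *Lpl*, *Hp*, *Vcam1*, *Il7*, *Igfbp5*, *Pdgfra* and *Pdgfrb*, out of 50508 genes listed for these cells. They were chosen because they stand below *Gm5763* in that list, the last complete row of the copy of the *Grem1*-lineage table used here, and no value for them in the *Grem1* lineage was used. That place in the list, which 21325 genes share, used no measured value, and the 9 were taken from it as named niche genes. The choice of these 9 was made with earlier results of these data known.

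The cells came from *Lepr-TdT* mice of strain C57BL/6, which carry a constitutive *Lepr-cre* and a Cre-dependent TdTomato at *Rosa26*, so that a cell is labelled when it or an ancestor used the *Lepr* promoter. Whole bones of mice age-paired with *Grem1-TdT* animals, whose tamoxifen chow began at 5 to 6 weeks and lasted 2 weeks, were digested, and live cells that were CD45-Ter119-CD31- and TdTomato positive were placed one per well on 96-well plates. Counts of unique molecular identifiers (UMIs) were used for 160 of 162 wells of 2 plates, 74 on plate 1 and 86 on plate 2, after 2 wells with fewer than 350 genes were left out. How many mice each plate holds is not given in the sources used here, so the spread between the plates may be technical.

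The plates held 158749 and 145484 UMIs, with a median of 1390 and 1130 per cell and a range over both of 533 to 21187. All 6 marrow stromal markers were present, summing to 10337 and 15115 CPM (the UMIs of a gene divided by all UMIs of the plate and scaled to counts per 1000000). *Cxcl12*, a chemokine gene among these markers, had a UMI in 159 of 160 cells. Myeloid transcripts were widespread in spite of the CD45 gate: *S100a8* had a UMI in 160 of 160 cells, with a median of 19.5 and a maximum of 1252, while *Ptprc*, which encodes CD45, had one in 9. The plates shared 68 well barcodes, and no pair of cells had identical counts.

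In marrow, reticular cells that express the leptin receptor surround the sinusoids, where they supply stem cell factor and CXCL12 to haematopoietic stem cells and interleukin 7 to lymphoid progenitors. They also carry platelet-derived growth factor receptors and the adhesion molecule VCAM1, and they share part of their programme with fat cells. The 9 genes therefore fall into ligands (*Kitl*, *Il7*), receptors (*Lepr*, *Pdgfra*, *Pdgfrb*), an adhesion molecule (*Vcam1*) and secreted proteins (*Lpl*, *Hp*, *Igfbp5*).

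The 9 genes held 3043 UMIs, or 1.0% of all, at 0.799% on plate 1 and 1.22% on plate 2. *Hp* and *Igfbp5* accounted for 66.1% of them. Per kilobase of annotated exon, the order of the levels averaged over the plates was *Hp*, *Igfbp5*, *Vcam1*, *Lpl*, *Pdgfrb*, *Kitl*, *Lepr*, *Pdgfra* and *Il7*. On that scale *Hp* was at 1769 and 2786 CPM per kilobase on plates 1 and 2, and *Igfbp5* was at 405 and 597. *Vcam1* (113 and 197) and *Lpl* (93.8 and 136) overlapped, as did *Pdgfrb* (46.0 and 52.7), *Kitl* (35.2 and 48.8) and *Lepr* (27.7 and 46.8), and as did *Pdgfra* (5.03 and 4.11) and *Il7* (5.56 and 1.21). These 3 sets were formed by that overlap, so the gaps between sets are no separate result. The 197 of *Vcam1* rests largely on 1 well, described further on. Which end of a transcript the reads cover is not given in the sources used here, and if only an end is read, division by exon length understates long transcripts.

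**Figure D1:**
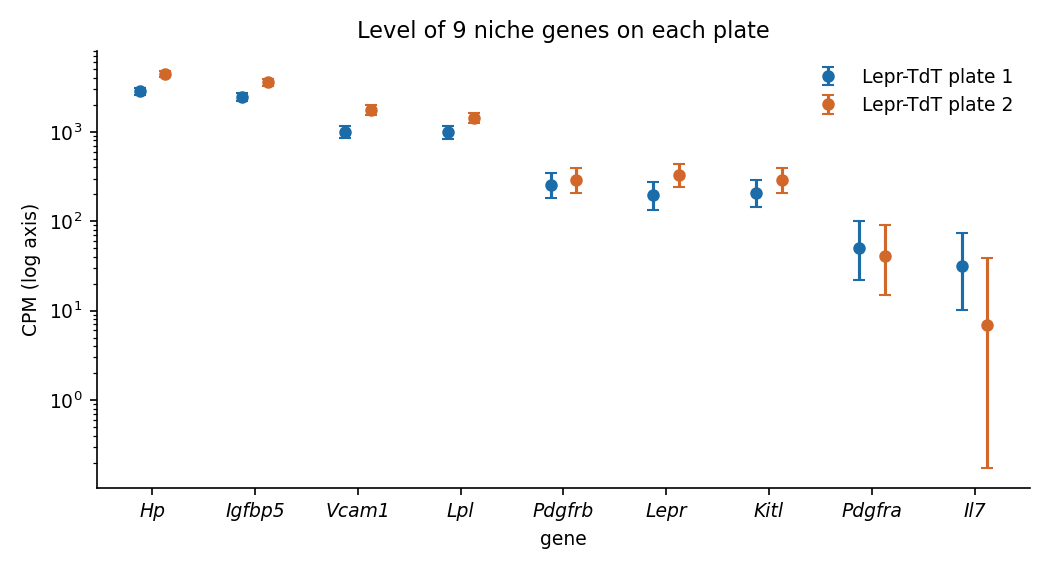
Level of each gene on the 2 *Lepr-TdT* plates, in CPM on a log axis; points are the plate sums and bars are exact 95% Poisson intervals, which cover counting error only. *Hp* and *Igfbp5* lie at 2432 or above on both plates, *Vcam1* and *Lpl* between 983 and 1746, *Pdgfrb*, *Lepr* and *Kitl* between 195 and 330, and *Pdgfra* and *Il7* below 51.

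Between the plates, 7 of the 9 genes were higher on plate 2, and in 5 of them (*Hp*, *Igfbp5*, *Vcam1*, *Lpl* and *Lepr*) the exact 95% interval of the ratio lay above 1, and in 0 it lay below 1. The 5 include *Vcam1*, whose ratio was 1.02 without 2 wells described further on. The share of all genes higher on plate 2, whatever their interval, was not counted, so the 7 of 9 has no background here. Over all 17474 genes with a UMI, 5.26% had an interval above 1 and 4.8% below, and over the 1074 genes with at least 50 UMIs, which include all but *Pdgfra* and *Il7*, the shares were 21.4% and 21.3%. The intervals count UMIs and not animals, and with 2 plates a sign-flip test cannot give a p below 0.5, so no test was made. *Cxcl12* moved the same way, from 8239 to 11314 CPM, and *Adipoq*, the adiponectin gene of the marrow stromal list, from 1562 to 2715 CPM. Of the 7 osteoblast markers only *Ibsp* rose, from 5644 to 7664 CPM. The others fell, among them *Col1a1* from 2671 to 220 CPM and *Spp1* from 5121 to 1643 CPM. *S100a8* went from 38627 to 17638 CPM. The 8 blood markers summed to 4970 and 7747 CPM. Of these, *Mpo* (0 and 4083 CPM) and *Elane* (44.1 and 2392 CPM) rose, and the others, such as *Lyz2* (4057 and 1230 CPM), fell. The part of transcripts of other cell types in the plate ratios was not tested.

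Promoters could be read for 4 of the 9 genes in RefSeq (GRCm38.p6), as 300 bases from 250 before to 50 after the start. They are shown for *Igfbp5* and *Kitl*, the pair of well-counted genes whose log odds ratio of joint detection, described further on, was furthest above 0, and for *Lepr* and *Pdgfra*, whose windows hold a C/EBP-type word, a binding motif of factors that act in fat cell formation. The windows are chr1:72874816-72875115, minus strand for *Igfbp5*, chr10:100015571-100015870, plus strand for *Kitl*, chr4:101717656-101717955, plus strand for the downstream of the starts listed for *Lepr*, and chr5:75152001-75152300, plus strand for *Pdgfra*. Each reads 5′ to 3′ on the strand of its gene, and capitals mark a match to TTGCNNAA on either strand.
Igfbp5: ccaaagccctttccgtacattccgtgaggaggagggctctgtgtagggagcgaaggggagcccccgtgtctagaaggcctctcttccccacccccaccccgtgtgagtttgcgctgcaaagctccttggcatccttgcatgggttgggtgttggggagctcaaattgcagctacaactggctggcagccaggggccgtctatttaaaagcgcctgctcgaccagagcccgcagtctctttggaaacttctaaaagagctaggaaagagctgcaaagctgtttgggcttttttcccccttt
Kitl: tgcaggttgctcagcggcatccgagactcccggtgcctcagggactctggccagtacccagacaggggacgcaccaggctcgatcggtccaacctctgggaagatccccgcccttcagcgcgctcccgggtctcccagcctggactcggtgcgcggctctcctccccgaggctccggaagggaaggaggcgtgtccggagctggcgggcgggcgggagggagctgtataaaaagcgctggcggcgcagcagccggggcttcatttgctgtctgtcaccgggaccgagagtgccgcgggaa
Lepr, downstream start: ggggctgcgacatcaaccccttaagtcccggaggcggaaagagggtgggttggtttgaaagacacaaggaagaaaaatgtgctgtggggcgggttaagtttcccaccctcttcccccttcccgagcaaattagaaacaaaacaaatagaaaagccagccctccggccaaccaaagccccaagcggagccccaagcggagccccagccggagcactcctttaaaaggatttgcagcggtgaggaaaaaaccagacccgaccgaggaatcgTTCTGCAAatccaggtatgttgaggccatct
Pdgfra: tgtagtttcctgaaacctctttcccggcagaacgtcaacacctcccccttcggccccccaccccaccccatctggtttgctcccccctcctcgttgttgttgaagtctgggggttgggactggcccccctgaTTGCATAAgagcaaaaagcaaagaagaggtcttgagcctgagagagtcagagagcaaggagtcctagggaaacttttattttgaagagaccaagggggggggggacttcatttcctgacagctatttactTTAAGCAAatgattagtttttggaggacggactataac
The *Lepr* window held 1 match (TTCTGCAA) and the *Pdgfra* window held 2 (TTGCATAA and TTAAGCAA). Neither the *Igfbp5* and *Kitl* windows nor the upstream *Lepr* window held any, and 10.8% of the 32851 promoters in the table hold at least 1. The EBF core CCCNNGGG (13.7% of all promoters), the forkhead word GTAAACA (3.65%) and the STAT word TTCNNNGAA (8.30%) had no match in any of the 5 windows read. A match is a string of letters and not a bound site.

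*Kitl* (chromosome 10 of GRCm38, 100015630 to 100100416, plus strand) encodes stem cell factor, the ligand of KIT on haematopoietic stem and progenitor cells. It had 33 UMIs on plate 1 and 42 on plate 2, at 208 and 289 CPM, a ratio of 1.39 (95% interval 0.859 to 2.26). The levels of the 2 plates thus differed by less than the counting error. A *Kitl* UMI was found in 24 of 74 cells (32.4%) on plate 1 and 24 of 86 (27.9%) on plate 2. No cell held more than 6.

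*Il7* (chromosome 3, 7569994 to 7613760, minus strand), the cytokine that B cell progenitors need, was barely sampled. It had 5 UMIs on plate 1 and 1 on plate 2, in 4 and 1 cells, and the ratio of the plates, 0.218, had an interval of 0.00461 to 1.95. An antisense gene with 3 UMIs, *Gm16685*, shares exon sequence with *Il7*, and since the strand setting of the counting is not given in the sources used here, reads of the pair may not have been told apart. No statement on the distribution of *Il7* is possible from 6 UMIs.

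Other niche factors were read beside these ligands, and places within this and the following gene lists are by UMIs, not per length. Of all 50508 genes listed, 17474 had a UMI and 2818 had one in at least 10% of the cells. The counts of each list stand beside these shares and were not tested against them. Of 20 genes for factors that act on stem cells and lymphoid progenitors, 18 had a UMI and 10 had one in at least 10% of the cells. The most abundant was *Cxcl12*, followed by *Spp1*, the osteopontin gene, at 5121 and 1643 CPM on plates 1 and 2, and by *Igf1*, which encodes insulin-like growth factor 1, at 195 and 371 CPM. Their receptors on blood cells were scarce, with 7 of 10 genes having a UMI. *Itgb1*, an integrin chain also used by stroma, led that list at 189 and 220 CPM. *Cxcr4*, the CXCL12 receptor, had 12 UMIs, *Csf1r*, the receptor of macrophages, had 5, *Kit* had 2 and *Il7r* had 0. With the floor set at 3 counts, which is lower than an exact two-sided limit, a count of 0 in 160 cells allows up to 1.88% of cells with a UMI, or 9.86 CPM over both plates.

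*Lepr* (chromosome 4, 101717404 to 101815352, plus strand) encodes the leptin receptor, and its promoter drives the Cre that labelled every cell. It had 31 UMIs on plate 1 and 48 on plate 2, at 195 and 330 CPM, with a ratio of 1.69 (95% interval 1.05 to 2.75). A UMI was found in 19 of 74 cells (25.7%) and in 34 of 86 (39.5%), and no cell held more than 4. Plate 2 was thus higher in level and in detection, though the intervals of the detected shares, 16.2% to 37.2% and 29.2% to 50.7%, overlapped. Since the label is inherited, a labelled cell without a *Lepr* UMI may be past its use of the gene or may have been sampled too thinly, and these cannot be told apart.

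Of 15 genes for leptin receptor signalling, 14 had a UMI and 5 had one in at least 10% of the cells. After *Lepr*, the most abundant were *Stat3*, the transcription factor that the receptor activates, at 202 and 75.6 CPM on plates 1 and 2, and *Ptpn1*, a phosphatase that restrains the receptor, at 176 and 6.87 CPM. *Ptpn1* had 28 UMIs on plate 1 and 1 on plate 2, the opposite direction to *Lepr*. *Leprot*, whose product regulates the surface level of the receptor, had 13 and 12 UMIs, and *Lep*, the leptin gene, had 0.

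*Pdgfrb* (chromosome 18, 61045150 to 61085061, plus strand) and *Pdgfra* (chromosome 5, 75152292 to 75198215, plus strand) encode the 2 receptors for platelet-derived growth factors. *Pdgfrb* had 40 UMIs on plate 1 and 42 on plate 2, at 252 and 289 CPM, with a ratio of 1.15 (95% interval 0.725 to 1.81). *Pdgfra* had 8 and 6 UMIs, at 50.4 and 41.2 CPM, with a ratio of 0.818 (0.234 to 2.69). *Pdgfrb* was thus the more abundant receptor on both plates, also per kilobase. It had a UMI in 28 of 74 and 28 of 86 cells, and *Pdgfra* in 8 and 5. Of the 7 genes for these ligands and receptors, 4 had a UMI: *Pdgfa*, a ligand of the alpha receptor, had 12 and 10 UMIs, *Pdgfrl* had 1, and *Pdgfb*, *Pdgfc* and *Pdgfd* had 0. *Rgs5*, a mural cell gene, had 38 UMIs, all on plate 2, *Cspg4* had 14 and *Acta2* had 4; the 4 mural markers summed to 63.0 and 330 CPM. Their part in the *Pdgfrb* level was not tested.

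*Vcam1* (chromosome 3, 116109949 to 116129688, minus strand) encodes the adhesion molecule that binds the integrin VLA-4 of blood cells. It had 159 UMIs on plate 1 and 254 on plate 2, at 1002 and 1746 CPM, with a ratio of 1.74 (95% interval 1.42 to 2.14), the highest of the 9 genes. This ratio rested on a single well of plate 2, which held 135 of the 254 UMIs (53.1%). On plate 1 the well with the same barcode was also the highest, with 29 of 159 UMIs. Without both wells the plates were at 832 and 850 CPM, a ratio of 1.02, no other cell held more than 11 UMIs, and the level per kilobase (93.8 and 95.8) was close to that of *Lpl* on plate 1 and below it on plate 2. These wells held 4 and 14 UMIs of *Pecam1*, the CD31 gene, against 6 and 11 over all other cells of their plates. *Cdh5* and *Kdr*, further endothelial genes, had 0 UMIs, and *Emcn* had 1; the 4 endothelial markers summed to 63.0 and 179 CPM.

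Among the 68 barcodes on both plates, the *Vcam1* UMIs of the paired wells had a Spearman rho of 0.12, and the other 8 genes, *Il7* aside, had rho from -0.23 (*Lepr*) to 0.24 (*Hp*). By contrast *Sec61a1* and *Mettl14*, chosen after their values were seen, had rho of 0.61 and 0.70. The paired wells share a position and a barcode sequence, and what links them was not tested. Of 12 adhesion genes of stroma, 11 had a UMI and 5 had one in at least 10% of the cells. *Cdh11*, a mesenchymal cadherin, came after *Vcam1* at 195 and 282 CPM, and *Cd44*, a hyaluronan receptor, at 283 and 48.1 CPM. *Itga4*, which encodes the integrin chain that binds VCAM1, had 3 UMIs.

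*Hp* (chromosome 8, 109575128 to 109579172, minus strand) encodes haptoglobin, which binds free haemoglobin. It was the most abundant of the 9 genes and the 16th of all genes by UMIs, with 451 UMIs on plate 1 and 651 on plate 2. Its levels were 2841 and 4475 CPM, with a ratio of 1.58 (95% interval 1.39 to 1.78). All but 4 cells carried it, 72 of 74 and 84 of 86, with a median of 5 and 6 UMIs and a maximum of 31 and 33. The myeloid transcript *S100a8* had a UMI in 160 of 160 cells, and the part of myeloid RNA in the *Hp* level was not tested. Of 16 genes of the acute phase response and of iron binding, 15 had a UMI and 10 had one in at least 10% of the cells. *Fth1*, the ferritin heavy chain gene, was at 4819 and 3856 CPM. *Trf*, the transferrin gene, was at 1512 and 1677 CPM, and *Cd163*, the receptor of haptoglobin complexes on macrophages, had 0 UMIs.

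*Igfbp5* (chromosome 1, 72857932 to 72874884, minus strand) encodes a secreted binding protein for insulin-like growth factors. It had 386 and 522 UMIs, at 2432 and 3588 CPM, with a ratio of 1.48 (95% interval 1.29 to 1.69). It was found in 67 of 74 cells (90.5%) and 81 of 86 (94.2%), with a median of 3 and 4 UMIs. Of 14 genes for these growth factors, their receptors, binding proteins and proteases, 12 had a UMI and 8 had one in at least 10% of the cells. *Igfbp4* (1367 and 2255 CPM) and *Igfbp7* (1140 and 2186 CPM) followed *Igfbp5*, so that binding proteins held the first 3 places and *Igf1*, the ligand, the fifth.

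*Lpl* (chromosome 8, 68880491 to 68907448, plus strand) encodes lipoprotein lipase, which releases fatty acids from circulating triglycerides. It had 156 and 208 UMIs, at 983 and 1430 CPM, with a ratio of 1.45 (95% interval 1.18 to 1.80). It was found in 52 of 74 cells (70.3%) and 72 of 86 (83.7%), and no cell held more than 12. Of 20 genes for lipid uptake and fat cell formation, 18 had a UMI and 7 had one in at least 10% of the cells. *Apoe*, a lipoprotein gene, led at 3761 and 6042 CPM, followed by *Adipoq*. *Gpihbp1*, whose product holds the lipase on capillary endothelium, had 0 UMIs. Of the 4 mature fat cell markers, 2 had a UMI: *Car3*, a carbonic anhydrase gene, had 108 in 29 cells and *Fabp4*, a fatty acid carrier gene, had 5. *Plin1*, a lipid droplet coat gene, had 0.

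Detection depends on depth, so each cell was thinned to 673 UMIs, the 10th percentile, which kept 67 and 77 cells and left out 16 shallower ones. At this depth *Hp* had a UMI in 82.1% and 92.2% of the cells of plates 1 and 2, *Igfbp5* in 76.1% and 89.6%, and *Lpl* in 53.7% and 67.5%. *Vcam1* was at 46.3% and 44.2%, so its higher level on plate 2 did not come with more positive cells. *Pdgfrb* was at 23.9% and 19.5%, *Kitl* at 14.9% and 20.8%, and *Lepr* at 10.4% and 26.0%. *Lepr* kept its higher share on plate 2, although the intervals (4.30% to 20.3% and 16.6% to 37.2%) overlapped. *Pdgfra* was at 5.97% and 2.60%, and *Il7* in 1 cell on each plate.

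**Figure D2:**
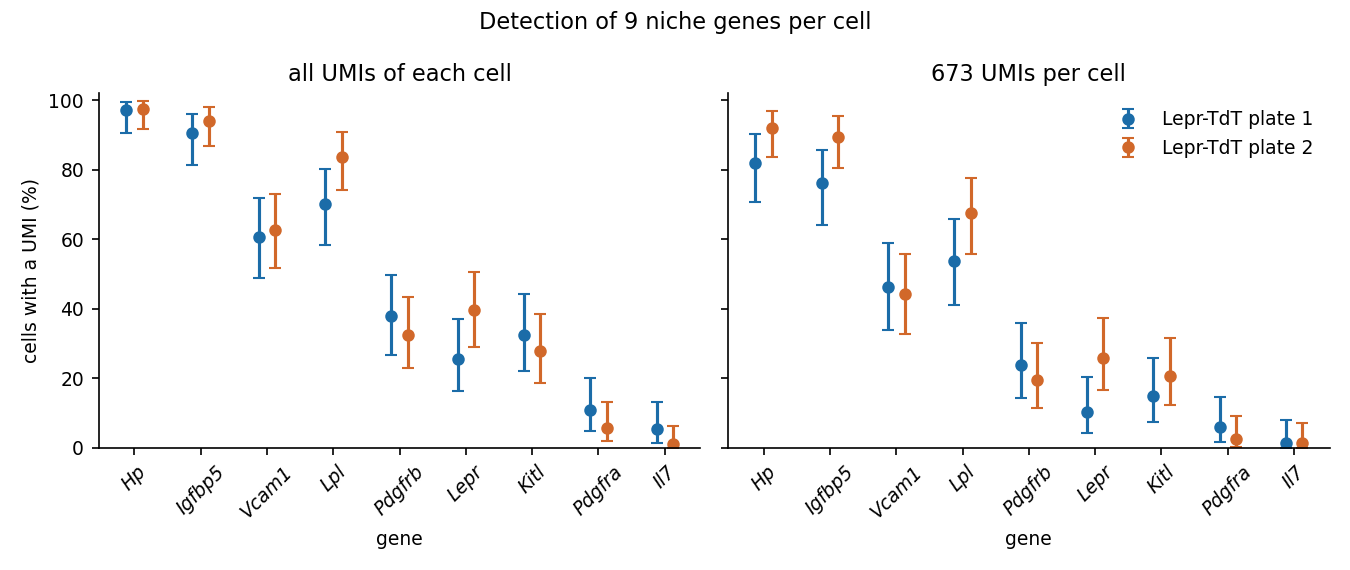
Share of cells with at least 1 UMI of each gene on the 2 plates, with all UMIs (left) and after thinning each cell to 673 UMIs (right); bars are exact 95% Clopper-Pearson intervals. *Hp* and *Igfbp5* stay above 75% at equal depth, *Lpl* and *Vcam1* lie between 44% and 68%, and the other 5 genes lie at or below 26.0%.

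The spread of each gene over the cells was read at equal depth. The variance of the thinned UMIs divided by their mean, which is close to 1 when cells differ by sampling alone, was 2.81 and 3.99 for *Vcam1* on plates 1 and 2, 3.11 and 1.89 for *Igfbp5*, and 2.42 and 1.60 for *Hp*. For *Lpl* it was 1.44 and 1.16. Without the 2 wells of the shared barcode, *Vcam1* was at 1.76 and 1.26. *Kitl* was at 1.53 and 1.08, *Pdgfrb* at 0.968 and 1.19, and *Lepr* at 1.15 and 0.975, but at means of at most 0.299 UMIs per cell the measure stays near 1 for most spreads, so these values say little about how unevenly the cells hold the genes. The measure also grows with the mean, and genes of different level are not ranked by it.

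**Figure D3:**
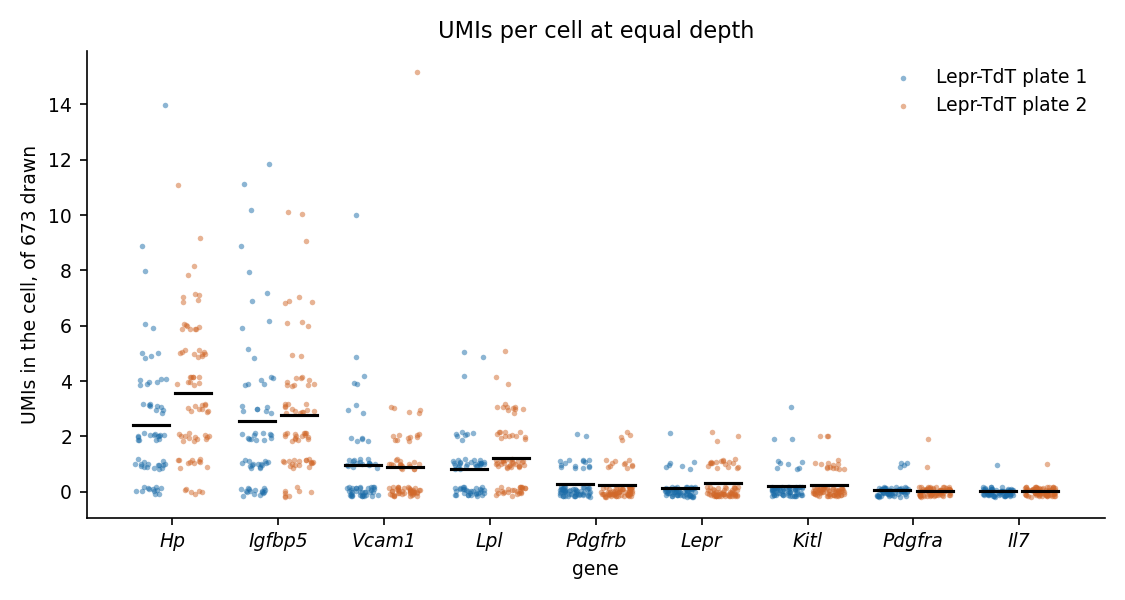
UMIs of each gene per cell after thinning to 673 UMIs; each point is 1 cell of plate 1 or plate 2, shifted slightly so that points can be seen, and black lines are plate means. *Hp* reaches 14 and *Igfbp5* 12, and *Vcam1* reaches 10 on plate 1 and 15 on plate 2, each in a single cell.

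Wells rich in blood transcripts were read apart. In 9 wells, 3 and 6 per plate, at least 1% of the UMIs came from the blood marker list, whose 8 genes all had a UMI and which *Lyz2* (4057 and 1230 CPM), *Mpo* (0 and 4083 CPM) and *Elane* (44.1 and 2392 CPM), genes of granule and lysozyme proteins, led. These wells held a median of 2845 UMIs, against 1220 in the other 151. Their level was lower for *Igfbp5* (789 against 3397 CPM), *Vcam1* (270 against 1562 CPM), *Pdgfrb* (62.3 against 309 CPM) and *Lpl* (519 against 1324 CPM), and also for *Hp* (2056 against 3917 CPM) and *Cxcl12* (3738 against 10833 CPM).

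Counted per well, the 9 wells held a mean of 20 *Cxcl12* UMIs and the others 18.4. The means were higher in the 9 wells for *Hp* (11 against 6.64), *Lpl* (2.78 against 2.25), *Kitl* (1.0 against 0.437), *Lepr* (0.889 against 0.470) and *Pdgfra* (0.222 against 0.0795). They were lower for *Igfbp5* (4.22 against 5.76), *Vcam1* (1.44 against 2.65), *Pdgfrb* (0.333 against 0.523) and *Il7* (0 against 0.0397). The other wells include the 2 with the highest *Vcam1* counts, 135 and 29 UMIs, which raise their *Vcam1* mean and level. Medians ran the other way for *Vcam1* (2 against 1) and *Hp* (5 against 6), and the same way for *Igfbp5* (3 against 4). At 673 UMIs, 7 of the 9 wells remained, and *Pdgfrb* and *Lepr* were found in 0 of 7, against 22.6% and 19.7% of the other cells. With 7 cells a count of 0 has an upper Clopper-Pearson limit of 41.0%, so these differences were not detectable. *Hp* was found in 7 of 7, *Kitl* in 2 and *Pdgfra* in 1, against 86.9%, 17.5% and 3.65% of the other cells, and 7 wells are too few to say whether these shares differ. Whether these wells hold a stromal cell beside a blood cell was not tested.

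Osteoblast transcripts were present too. All 7 markers had a UMI, summing to 14507 CPM on plate 1 and 9671 on plate 2, with *Ibsp*, a bone matrix protein gene, in 159 of 160 cells. The 4 chondrocyte markers summed to 208 and 20.6 CPM, led by *Col2a1*, *Sox9* and *Acan* with 17, 11 and 5 UMIs. Transcription factors of marrow stroma had a UMI for 13 of 14 genes, with *Nfia* (315 and 536 CPM), *Ebf1* (378 and 412 CPM) and *Runx1* (189 and 158 CPM) in front. For comparison, the median gene with a UMI was at 12.6 and 13.7 CPM.

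Joint detection asked whether the cells with *Cxcl12* are the cells with the other niche genes. At 673 UMIs, *Cxcl12* had a UMI in 140 of 144 cells, so only 4 cells lacked it. The log odds ratio (natural log, with 0.5 added to each cell of the table) had a median over the 9 genes of 0.14, from -2.22 for *Il7* to 1.28 for *Lpl*, as means of the plates. With 4 cells on one side this measure carries little, and its median turned to -0.23 with another thinning seed: *Lpl* was in 87 of 140 cells with *Cxcl12* and 1 of 4 without, and *Igfbp5* in 117 of 140 and 3 of 4.

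The cells were therefore divided at the median *Cxcl12* UMI number of their plate, which gave 79 cells at or above it and 65 below. *Igfbp5* was found in 33 of 38 and 18 of 29 such cells of plate 1 (86.8% and 62.1%) and in 39 of 41 and 30 of 36 of plate 2 (95.1% and 83.3%), log odds ratios of 1.33 and 1.21. *Pdgfrb* was found in 12 of 38 and 4 of 29 cells of plate 1 and in 11 of 41 and 4 of 36 of plate 2, log odds ratios of 0.98 and 1.0. The shares of these 2 genes were thus higher with more *Cxcl12* on both plates, but for *Pdgfrb* they rest on 4 cells below the median on each plate, and the intervals overlapped for both genes on both plates (for *Pdgfrb* on plate 1, 17.5% to 48.7% and 3.89% to 31.7%).

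*Lepr* (1.34 and 0.35) and *Lpl* (0.86 and 0.07) were above 0 on both plates too. For *Lepr* the value of plate 1 rests on 6 of 38 cells against 1 of 29, with overlapping intervals (6.02% to 31.3% and 0.0873% to 17.8%). *Vcam1* differed most between the plates: on plate 1 it was in 26 of 38 cells with more *Cxcl12* and 5 of 29 with less, a log odds ratio of 2.25, and on plate 2 in 17 of 41 and 17 of 36, at -0.23. *Hp* (0.71 and -0.50) and *Kitl* (0.59 and -0.16) also changed sign, as did the scarce *Pdgfra* and *Il7*. Over the 9 genes the median was 0.47, at 0.86 on plate 1 and -0.13 on plate 2.

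**Figure D4:**
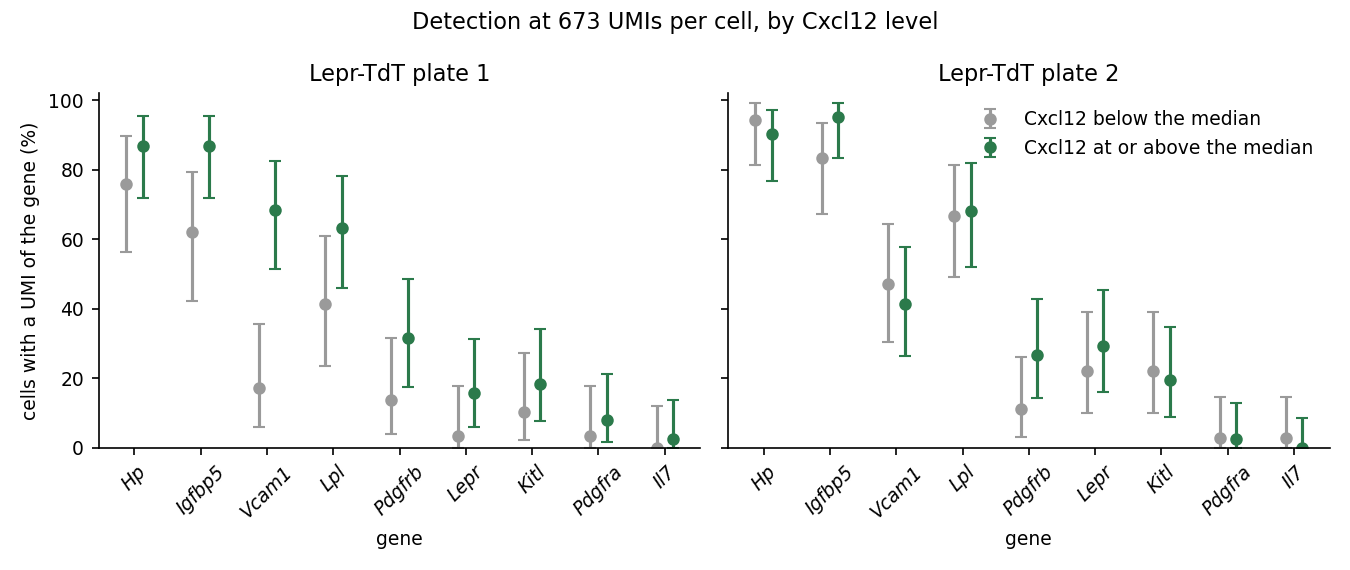
Share of cells with a UMI of each gene at 673 UMIs per cell, for cells below (grey) and at or above (green) the median *Cxcl12* UMI number of their plate, on plate 1 (left) and plate 2 (right); bars are exact 95% Clopper-Pearson intervals. *Igfbp5* and *Pdgfrb* are higher with more *Cxcl12* on both plates, and *Vcam1* on plate 1 (68.4% against 17.2%) but not on plate 2, with overlapping intervals for *Igfbp5* and *Pdgfrb*.

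Other genes in the place of *Cxcl12* gave medians of like size when cells were divided at their median: 0.61 for *Ibsp*, 0.32 for *Actb*, the beta-actin gene, 0.28 for *Adipoq*, 0.27 for *Malat1*, a nuclear RNA of most cells, and 0.17 for *S100a8*. By detection alone the median was 0.17 with *Adipoq*, 0.04 with *Col1a1*, 0.16 with *Ppia* and -0.17 with *Actb*. A positive median was therefore not particular to *Cxcl12*. Nor was a value above 0 for *Igfbp5*. With each gene divided at its median it was above 0 on both plates, at 0.59 and 1.21 with *Ibsp*, 0.53 and 2.23 with *Adipoq*, 0.35 and 0.77 with *Actb*, 0.51 and 0.44 with *Malat1*, and 0.19 and 0.20 with *S100a8*. By detection alone *Igfbp5* was at 0.53 and 0.78 with *Adipoq* but at -0.35 and -1.07 with *Col1a1*. It differed in sign between the plates with *Ppia* (-1.18 and 0.16) and *Actb* (-0.51 and 0.67). *Pdgfrb* was above 0 on both plates with *Malat1* (0.12 and 0.68) and differed in sign between the plates with the other 4 genes divided at their median. By detection alone it was above 0 on both plates with *Col1a1* (0.67 and 1.91), the latter from 3 of 5 cells with *Col1a1*. It differed in sign with *Adipoq*, *Ppia* and *Actb*. *Gapdh* was found in 1 of the 144 cells and *Ppia* in 6, so neither is of use as a common gene here.

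Per cell, a mean of 3.15 of the 9 genes was found at 673 UMIs on plate 1 and 3.64 on plate 2, or 3.39 ± 0.34 (SD, n = 2 plates). Most cells held 3 (44 cells) or 4 (46 cells), 25 held 5 or 6, none held more, and 1 cell held none. The SD over cells was 1.40 on plate 1, against 1.14 if the genes were found independently of each other, and 1.12 on plate 2, against 1.09. The SD of plate 1 was thus above the value that independence gives, and that of plate 2 close to it. No interval was computed for these SDs, so whether the excess on plate 1 goes beyond sampling was not tested.

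Between the genes themselves, the 36 pairs had a median log odds ratio of 0.28, from -0.96 to 1.91. It was above 0 on both plates in 14 pairs and below 0 on both in 6. Pairs with *Il7* or *Pdgfra* rest on at most 6 cells, and the 0.5 added to the table can set their sign. The 1.91 is that of *Il7* and *Pdgfra*, which shared 0 cells. *Il7* and *Pdgfrb* also shared 0 cells but were above 0 on both plates (0.02 and 0.28). *Il7* and *Igfbp5* were below 0 on both (-0.02 and -0.99), although 100% of the 2 cells with *Il7* held *Igfbp5*. Over the 15 pairs of *Kitl*, *Lpl*, *Hp*, *Vcam1*, *Igfbp5* and *Pdgfrb*, each found in at least 10 cells of each plate, the median was 0.23 and 7 were above 0 on both plates.

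The pair furthest above 0 among these was *Kitl* and *Igfbp5*, at 0.84 and 1.66 on plates 1 and 2: *Igfbp5* was in 25 of 26 cells with *Kitl* and in 95 of 118 without. All 16 cells with *Kitl* on plate 2 held *Igfbp5*, so the 1.66 rests on the 0.5 added to an empty cell of the table. *Igfbp5* was in 69 of 77 cells of that plate, and the first place of this pair is not secure. *Hp* and *Igfbp5* (0.61 and 0.85) and *Lpl* and *Vcam1* (0.55 and 0.72) came next. *Vcam1* was in 45 of 88 cells with *Lpl* and in 20 of 56 without. *Lepr* was above 0 on both plates with *Vcam1* (1.05 and 0.58) and below 0 on both with *Hp* (-0.78 and -1.14) and *Igfbp5* (-0.38 and -0.65). On plate 1 these values rest on 7 cells with *Lepr*, fewer than the 10 asked of the genes ranked above. *Hp* was in 22 of 27 cells with *Lepr* and in 104 of 117 without. *Lepr* and *Kitl*, the gene of the label and the stem cell factor gene, shared 3 cells, and their log odds ratio changed sign, at 1.03 and -1.56.

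**Figure D5:**
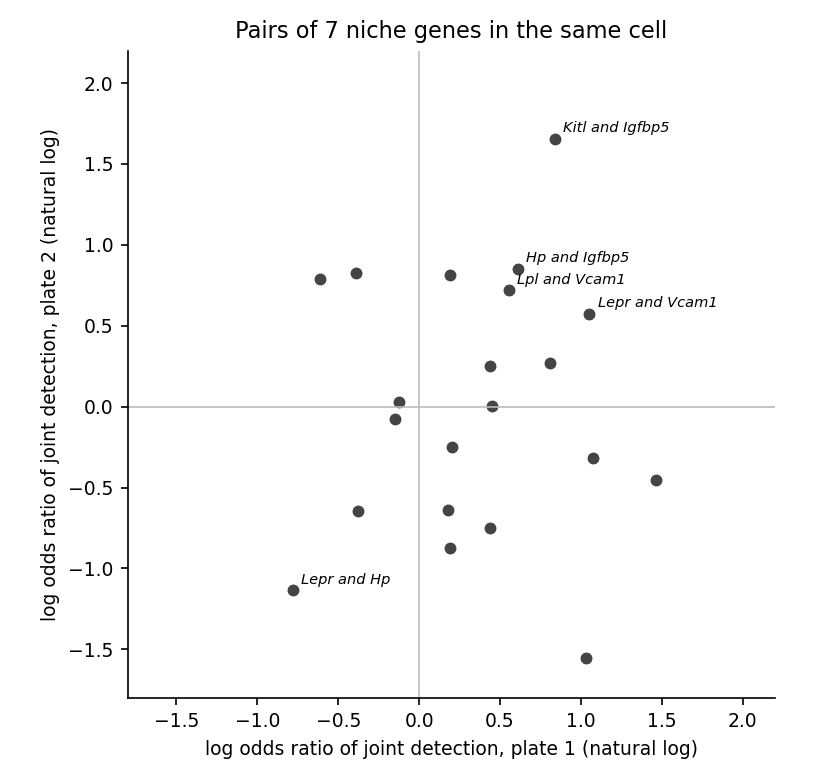
Log odds ratio (natural log) of finding both genes of a pair in the same cell at 673 UMIs, on plate 1 (x axis) and plate 2 (y axis); each point is 1 pair of *Hp*, *Igfbp5*, *Vcam1*, *Lpl*, *Pdgfrb*, *Kitl* and *Lepr*, and pairs with a mean of at least 0.6 in size are named. *Kitl* and *Igfbp5* lie highest, at 0.84 and 1.66, and *Lepr* and *Hp* lowest on both axes together, at -0.78 and -1.14. On plate 2 no cell with *Kitl* lacked *Igfbp5*, and on plate 1 *Lepr* was found in 7 cells.

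To find genes whose UMIs per cell were most like those of a member, rho was computed over the 67 thinned cells of plate 1 for genes found in at least 20% of them, and the 3 highest were read again in the 77 cells of plate 2, which did not choose them. Both genes of a pair share their cell's depth and library. Of 18 pairs, with rho from 0.30 to 0.51 on plate 1, 8 were above 0 on plate 2. Over all genes searched for a member, the median rho on plate 2 ran from -0.015 (*Pdgfrb*) to 0.019 (*Hp*). With medians so close to 0, the count of 8 is no sign that the pairs as a set held on plate 2. *Hp* with *Sfrp4*, the gene of a secreted Wnt antagonist, was at 0.39 on plate 1 and 0.38 on plate 2. *Igfbp5* with *Serping1*, which encodes the C1 inhibitor of complement, was at 0.51 and 0.27, and with *Cxcl12* at 0.48 and 0.20. *Lpl* with *H2-K1*, a class I histocompatibility gene, was at 0.47 and 0.18. The 95th percentile of rho on plate 2 over the searched genes was 0.198 for *Hp*, 0.206 for *Igfbp5* and 0.219 for *Lpl*. *Sfrp4* and *Serping1* lay above it, and *Cxcl12* with *Igfbp5* (0.199) and *H2-K1* with *Lpl* (0.183) below it.

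The rest were lower on plate 2. *Kng1*, the kininogen gene, was at 0.45 and 0.07 with *Lpl* and at 0.51 and 0.07 with *Igfbp5*, and *Ifitm3* was at 0.45 and -0.05 with *Lpl*. *Vcam1* was at 0.42 and 0.08 with *Adipoq*, at 0.36 and 0.05 with *Cxcl12* and at 0.36 and -0.05 with *Tmem176b*. *Hp* was at 0.40 and -0.18 with *Kif3a* and at 0.39 and -0.01 with *Tmem176a*. *Kitl* named *Vcam1* (0.32 and -0.07), *Gm24601* (0.32 and -0.04) and *Rpl32* (0.30 and 0.00), and *Pdgfrb* named *Prdx5* (0.37 and -0.02), *Ebf1* (0.33 and -0.10) and *Gm37895* (0.32 and -0.10). In sparse counts a rho of this size is a description of these cells.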

How the data were processed

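Raw UMI counts for every gene and well, in 1 table per lineage, were deposited by the authors; the 8 *Grem1*-lineage plates served only to find which genes their table lists (29183). The submitters' processing notes name STAR, featureCounts, UMI-tools, SAMtools, Seurat and mm10, with no role or version; the strand setting is not given in the sources used here. No column was left unused for want of a sample (0 such columns).

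Wells with fewer than 350 genes were left out (2 wells). Doublets were not called, since cells were sorted singly into wells. Counts were summed per plate and divided by the plate total (CPM). Poisson and Clopper-Pearson intervals (95%, exact) cover counting error only; ratio intervals are exact and conditional on the sum of both plates. Cells were thinned to 673 UMIs without replacement (seed 1). Scripts were tested on simulated counts. Genes named are the 9 genes, their ligands and receptors, the 3 genes with the most UMIs of each list, the partner genes of the joint detection and the 3 genes with the highest rho of each gene found in at least 10 thinned cells per plate. The result of 1 marker list is not reported here. The members, lists and comparisons were chosen with earlier results of these data known. Alternatives were the gene minimum, limits on mitochondrial share and depth, other thinning, scaling and partner genes, and each plate left out. Coordinates are from GENCODE vM21 (GRCm38) and promoters from RefSeq. Python 3.11.15, numpy 2.4.6, pandas 2.3.3, scipy 1.17.1 and matplotlib 3.10.9 were used.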

Additional observations from a re-analysis of the deposited data

Results flagged for a closer look

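The 2 wells left out for having fewer than 350 genes, which no comparison used, held 11 *Hp* UMIs, found in both wells, which is above the 3 counts that a count of 0 allows. Beside it they held 24 *Cxcl12* UMIs, 2 each of *Lpl*, *Igfbp5* and *Pdgfrb*, 1 of *Kitl* and 0 of *Lepr*, *Vcam1*, *Il7* and *Pdgfra*. No group had the 4 plates needed to look for a plate that stands apart.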

How the results depend on the processing

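No paired analysis was possible because the values come from no test and these genes were analysed in 1 group of 2 plates. The median level of the 9 genes, 291 ± 55.1 CPM (SD, n = 2 plates), was 385 without the deepest 5% of cells of each plate and 385 as the mean over cells of each cell's CPM, and 252 to 330 with each plate left out. The 3.39 genes found per cell became 4.38 without thinning and 3.92 at 1000 UMIs, since deeper cells show more genes, and 3.15 to 3.64 with each plate left out. The median log odds ratio with *Cxcl12*, 0.14, was 0.84 with at least 2 *Cxcl12* UMIs, which leaves 13 cells on the other side, and 0.95 with *Gapdh* in its place, which rests on 1 cell; with each plate left out it ran from -0.24 to 0.51. Its sign turned with another thinning seed (-0.23), no thinning (-0.08), 1000 UMIs (-0.05), limits on the mitochondrial share and the genes per cell (-0.18), the deepest cells left out (-0.05) and 1 added to each cell of the table (-0.35), so its direction is not settled. Between pairs of the 9 genes it was 0.28, and 0.02 to 0.44 with each plate left out. Leaving out cells with a blood marker UMI left 6 cells, too few to read.

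Single genes moved by more than the spread between the plates in 15 of 63 levels, 16 of 72 detected shares and 93 of 198 log odds ratios with *Cxcl12*. Leaving out the 9 wells rich in blood transcripts, leaving out both wells of the barcode behind the highest *Vcam1* counts, and dividing cells at the median of other genes were chosen after seeing the data; the *Vcam1* level fell from 1374 to 841 CPM without those wells. Depth limits *Il7* (6 UMIs) and *Pdgfra* (14 UMIs) most.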
